A study of Mus musculus with 8 samples.

Results

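The genes that build and sulfate the sugar chains of proteoglycans were followed in the progeny of hypertrophic chondrocytes, the swollen cartilage cells next to the bone front of the growth plate. They comprise the glycosyltransferases, the epimerases, the sulfotransferases, the extracellular sulfatases and the makers of the sulfate donor. A rule on gene symbols picked them, taking numbered members of the Chst, Chsy, Chpf, Csgalnact, Xylt, Ext, Extl, Hs2st, Hs3st, Hs6st, Ndst, B3gat, B4galt, Sulf and Papss families with Chpf, Glce, Dse, Ust and B3galt6. It found 60 of the 48490 genes in the deposited table, and it used no measured value.

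The mice of all 3 groups carried the Col10a1Cre transgene, which is active in hypertrophic chondrocytes, and the Rosa26-Tdtomato reporter. GoF mice also lacked exon 3 of 1 Ctnnb1 allele (Ctnnb1-exon3 Δ/+), the part that marks β-catenin for degradation, and β-catenin carries the canonical Wnt signal to the nucleus. LoF mice had the deletion of Ctnnb1 on both alleles (Ctnnb1Δ/Δ), and WT mice had the Cre and the reporter alone. Each library was made by Smart-seq2, a full-length cDNA method without strand information, from a hand-picked pool of 70 red fluorescent cells, taken from the proximal tibia of 5-day-old mice. There were 2 GoF, 4 LoF and 2 WT libraries. No label says whether libraries of a group came from separate mice. Every p-value therefore refers to the spread among libraries, which may be technical where libraries share a mouse. The LoF libraries differed in the sex transcripts given below, so they came from more than 1 mouse. For GoF and WT this is not known. Cells were chosen by descent, so a library can mix the cell types that the lineage gives rise to.

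A proteoglycan is a core protein with long sugar chains built on a short linker of xylose, galactose and glucuronic acid. Chondroitin and dermatan sulfate grow from the linker by the Csgalnact, Chsy and Chpf enzymes, and heparan sulfate grows from it by the exostosins. Sulfotransferases of the Golgi then move sulfate from the donor PAPS, made by Papss1 and Papss2, to set positions on the chains. Cartilage matrix is rich in chondroitin sulfate, and heparan sulfate binds signalling proteins such as fibroblast growth factors, hedgehogs and Wnts. In humans and mice, loss of PAPS synthesis or of chondroitin sulfation disturbs the growth plate.

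Promoter sequences are shown for the 2 chondroitin sulfotransferases with the highest log2 fold change of GoF over LoF, for the more abundant PAPS synthase, and for a sulfotransferase listed at 0 in GoF. They were read from RefSeq on GRCm38.p6, from 250 bases before to 50 bases after the RefSeq gene start. They are written 5′ to 3′ on the gene's strand. The RefSeq start can differ from that of the spans given below, and the Chst2 window lies wholly upstream of its span. The capitals mark each CG dinucleotide. These 4 genes and the marking were chosen after the values were seen.
Chst11, chr10:82985247-82985546, plus strand: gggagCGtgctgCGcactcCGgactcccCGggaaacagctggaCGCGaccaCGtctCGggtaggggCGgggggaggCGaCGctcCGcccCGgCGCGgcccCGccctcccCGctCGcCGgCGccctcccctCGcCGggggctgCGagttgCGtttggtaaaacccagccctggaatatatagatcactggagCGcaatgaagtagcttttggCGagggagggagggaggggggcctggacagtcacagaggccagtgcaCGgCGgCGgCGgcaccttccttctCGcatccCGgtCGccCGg
Chst13, chr6:90325136-90325435, minus strand: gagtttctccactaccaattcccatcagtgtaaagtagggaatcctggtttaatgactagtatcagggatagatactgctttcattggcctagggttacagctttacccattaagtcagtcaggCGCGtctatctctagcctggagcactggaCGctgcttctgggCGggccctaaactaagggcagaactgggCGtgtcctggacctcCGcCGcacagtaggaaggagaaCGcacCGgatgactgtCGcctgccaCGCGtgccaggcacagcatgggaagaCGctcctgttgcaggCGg
Papss1, chr3:131564518-131564817, plus strand: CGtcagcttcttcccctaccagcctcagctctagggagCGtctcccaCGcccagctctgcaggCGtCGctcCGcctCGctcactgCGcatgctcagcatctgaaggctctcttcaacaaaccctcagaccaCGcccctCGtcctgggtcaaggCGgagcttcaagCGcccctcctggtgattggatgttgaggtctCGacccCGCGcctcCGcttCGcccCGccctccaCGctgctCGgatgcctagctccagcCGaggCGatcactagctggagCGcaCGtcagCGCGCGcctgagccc
Chst2, chr9:95407221-95407520, minus strand: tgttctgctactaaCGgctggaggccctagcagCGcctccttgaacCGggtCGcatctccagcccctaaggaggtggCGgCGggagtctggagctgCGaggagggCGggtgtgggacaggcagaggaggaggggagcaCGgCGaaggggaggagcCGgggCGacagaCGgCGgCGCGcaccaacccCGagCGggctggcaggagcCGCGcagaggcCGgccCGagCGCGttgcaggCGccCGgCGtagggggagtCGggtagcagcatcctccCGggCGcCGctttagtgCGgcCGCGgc

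The Chst11 window held 34 CG dinucleotides, the Chst13 window 14, this Papss1 window 27 and the Chst2 window 34. Of the 60 genes, 48 had a window in the RefSeq table, with 57 windows in all. The median window of these genes held 23 CG dinucleotides, against 7 over the 32851 windows of all genes. At least 20 CG dinucleotides stood in 63.2% of the enzyme windows and in 26.5% of all windows. The core letters bound by TCF/LEF, the DNA partners of β-catenin, were searched as CTTTGA on both strands. They were present in 5.26% of the enzyme windows (3 of 57, those of B4galt3, B4galt7 and Extl1) and in 16% of all windows (5257 of 32851). None of the 8 windows of the 6 genes higher in GoF than in LoF held them, and none of the 5 windows of the 4 lower genes did. This says only that these letters are not in these windows.

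Levels are given as FPKM, which corrects fragment numbers for gene length and library total, as the authors deposited them. A log2 fold change is the difference between 2 groups in mean log2(FPKM + 1), which understates the change of low genes. Tests were limma fits across all tested genes with Benjamini-Hochberg adjustment. A gene was tested where 2 or more libraries reached an FPKM of 1, which took 12888 genes and 43 of the 60 enzymes. The other 17 fell below that level, and 7 of them (B3gat1, Chst4, Chst9, Hs3st4, Hs6st3, Ndst3 and Ndst4) were listed at 0 in every library. Xylt1, a xylosyltransferase that starts the linker, was also below it, with 0.346 and 0.172 FPKM in GoF, 0.274 to 0.505 in LoF and 0.327 and 0.570 in WT. Chst3, the main chondroitin 6-sulfotransferase of cartilage, had 0.351 FPKM in GoF library 2, 0.691 in LoF library 2 and 0 in the other libraries.

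Between 12587 and 13944 genes were above 0 per library, FPKM summed to 293194 to 382101, and read totals are unknown. Ctnnb1 had 72.0 and 86.7 FPKM in GoF, 67.3 to 81.1 in LoF and 137 and 146 in WT. Both GoF libraries held Y-linked transcripts and both WT libraries held Xist, while LoF libraries 2 and 3 held Y-linked transcripts and LoF libraries 1 and 4 held Xist. Sex and genotype therefore cannot be told apart within GoF against WT alone. Marker lists moved with the groups. The summed FPKM of 6 osteoblast markers was 14602 to 16099 in GoF, 743 to 1761 in LoF and 10804 to 11089 in WT. That of 6 adipocyte and marrow stroma markers was 43.2 to 57.7 in GoF, 979 to 2371 in LoF and 94.1 to 401 in WT. In GoF against LoF, 5 of 6 osteoblast markers were higher and 4 of 6 adipocyte and stroma markers were lower. Over all tested genes, 5.97% were called higher and 5.68% lower in this comparison. Adipoq was at 0 in both GoF libraries and WT library 2. Lepr, of the adipocyte and stroma list, went the other way, with 38.1 and 56.9 FPKM in GoF and 2.15 to 32.6 in LoF. It had 51.3 and 27.0 FPKM in WT and was not called (limma adjusted p = 0.133 for GoF against LoF). Lepr made up most of the GoF sum of that list. The 5 hypertrophic chondrocyte markers summed to 1654 to 2552 in GoF, 12173 to 16764 in LoF and 5085 to 6451 in WT. They did not move together: in GoF against LoF, Panx3 was higher and Mmp13 and Spp1 were lower. Ihh was higher too, with 1.46 and 3.91 FPKM in GoF and 0 in every LoF and WT library. It entered the test only through the GoF libraries, so its call is no support. Col10a1 had 190 and 177 FPKM in GoF, 9.61 to 114 in LoF and 6.24 and 20.5 in WT (limma adjusted p = 0.163 for GoF against LoF). Mmp13 had 10.9 and 86.7 FPKM in GoF, 3113 to 4784 in LoF and 2106 and 1514 in WT. The 6 cartilage markers summed to 64.9 to 128 in GoF, 19.2 to 73.9 in LoF and 15.02 to 16.5 in WT, with both mutants above WT in every library. None of the 6 was called by limma in any comparison. At an unadjusted p under 0.05, limma had 1 higher in GoF against LoF, 3 in GoF against WT and 3 in LoF against WT. Over all tested genes, 11.3%, 7.27% and 7.67% were higher at that level, in the same order. Summed endothelial markers reached 57.0 in LoF library 3 and at most 6.83 elsewhere, and summed erythroid markers reached 10567 in WT library 2 and at most 2557 elsewhere. Macrophage and osteoclast markers summed to 102 to 111 in GoF, 72.1 to 99.2 in LoF and 73.0 to 92.2 in WT, of which the osteoclast protease Ctsk gave 53.0 to 77.8. Acp5, another osteoclast enzyme, had 22.3 and 17.6 FPKM in GoF, 1.08 to 6.99 in LoF and 3.23 and 5.30 in WT, and was higher in GoF than in LoF (limma adjusted p = 0.0319), while the osteoclast fusion gene Ocstamp was at 0 in every library. The part of cell mixture in the results below was not tested, and in pooled cells fewer cells of a type and less RNA per cell cannot be told apart.

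**Figure D1:**
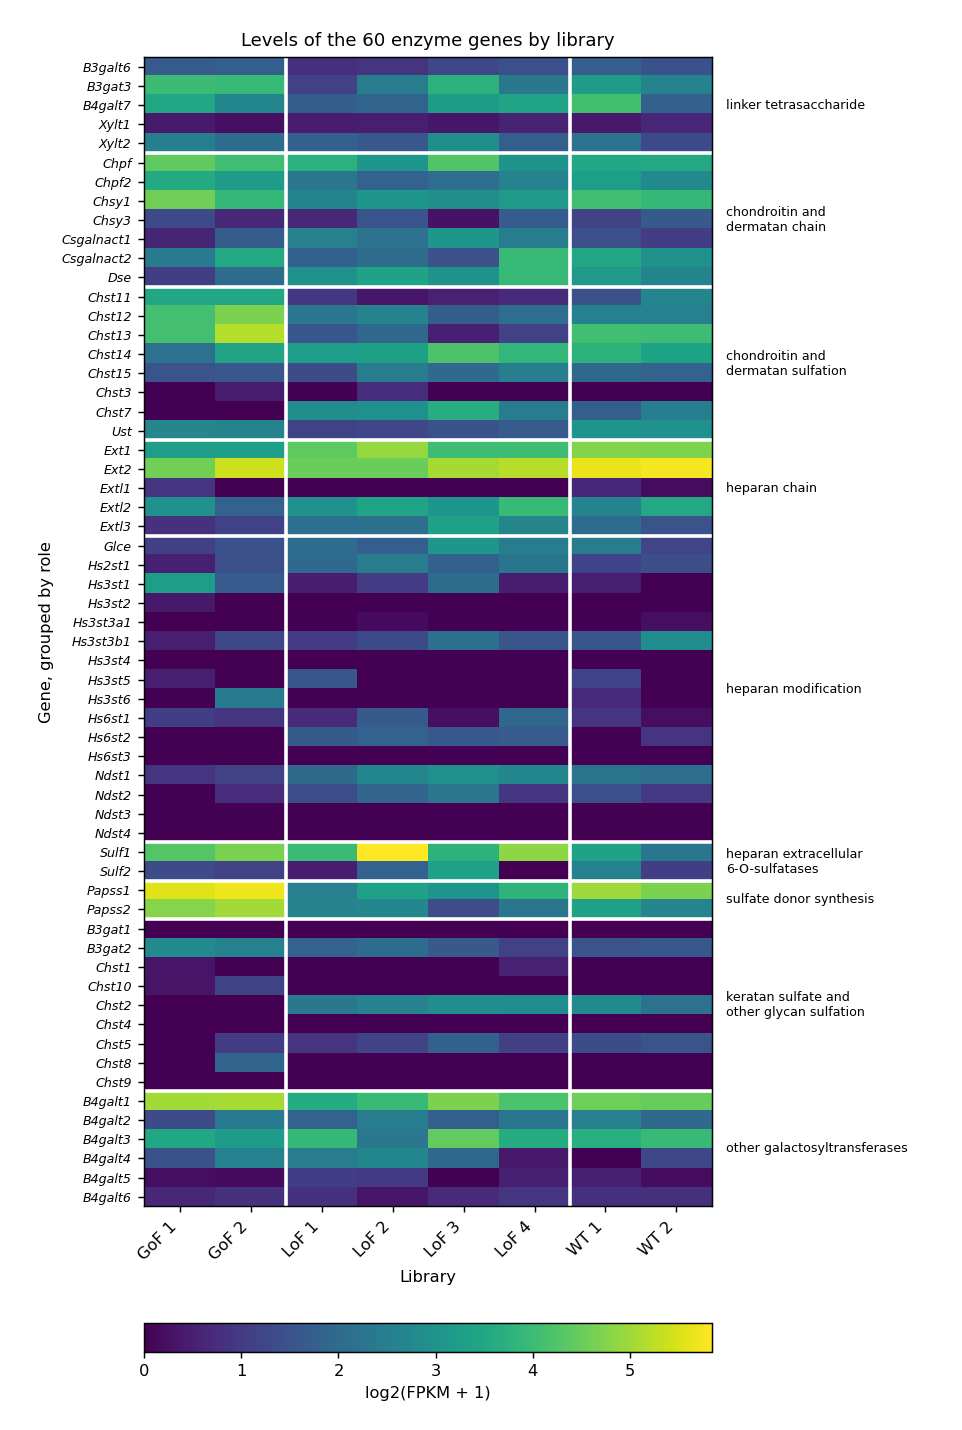
Level of each of the 60 enzyme genes (rows, grouped by role) in each library (columns, GoF, LoF and WT), as log2(FPKM + 1) on a colour scale. Within each row, Papss1, Papss2, Chst11, Chst12 and Chst13 are brighter in both GoF libraries than in the 4 LoF libraries. Chst2 and Chst7 are listed at 0 in both GoF libraries.

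The comparison of GoF with LoF sets the 2 opposite alleles of β-catenin against each other. The GoF libraries had higher levels of both PAPS synthases, of all 3 chondroitin 4-sulfotransferases and of the chondroitin synthase Chsy1. They had lower levels of Dse, Chst7 and Chst2. Hs6st2 was lower too, but it entered the test only through the LoF libraries, where it is high. These 10 genes, 6 higher and 4 lower, were 23.3% of the 43 tested enzymes, while 11.6% of all tested genes were called in this comparison, 5.97% higher and 5.68% lower. Among genes with libraries at 1 FPKM in 2 or more groups, a restriction chosen after seeing the data that leaves out Hs6st2, 9 of 41 enzymes were called (22.0%) and 11% of all 12019 genes. At an unadjusted p under 0.05, 11 enzymes were higher and 10 lower, against 11.3% and 14% of all tested genes. In 12 enzymes both GoF libraries lay above all LoF libraries and in 12 both lay below, and such separation was seen in 33.5% of all tested genes (14.8% higher and 18.7% lower). The median log2 fold change was −0.14 over the enzymes and −0.17 over all tested genes, and the median of all genes was −0.05 after median ratio scaling and −0.03 after quantile normalization. The count of 10 fell when either GoF library was left out, and so did the count over all tested genes. With sex as a covariate the enzyme count was 7, with Chsy1, Dse and Hs6st2 lost, while that of all tested genes fell from 1501 to 974.

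**Figure D2:**
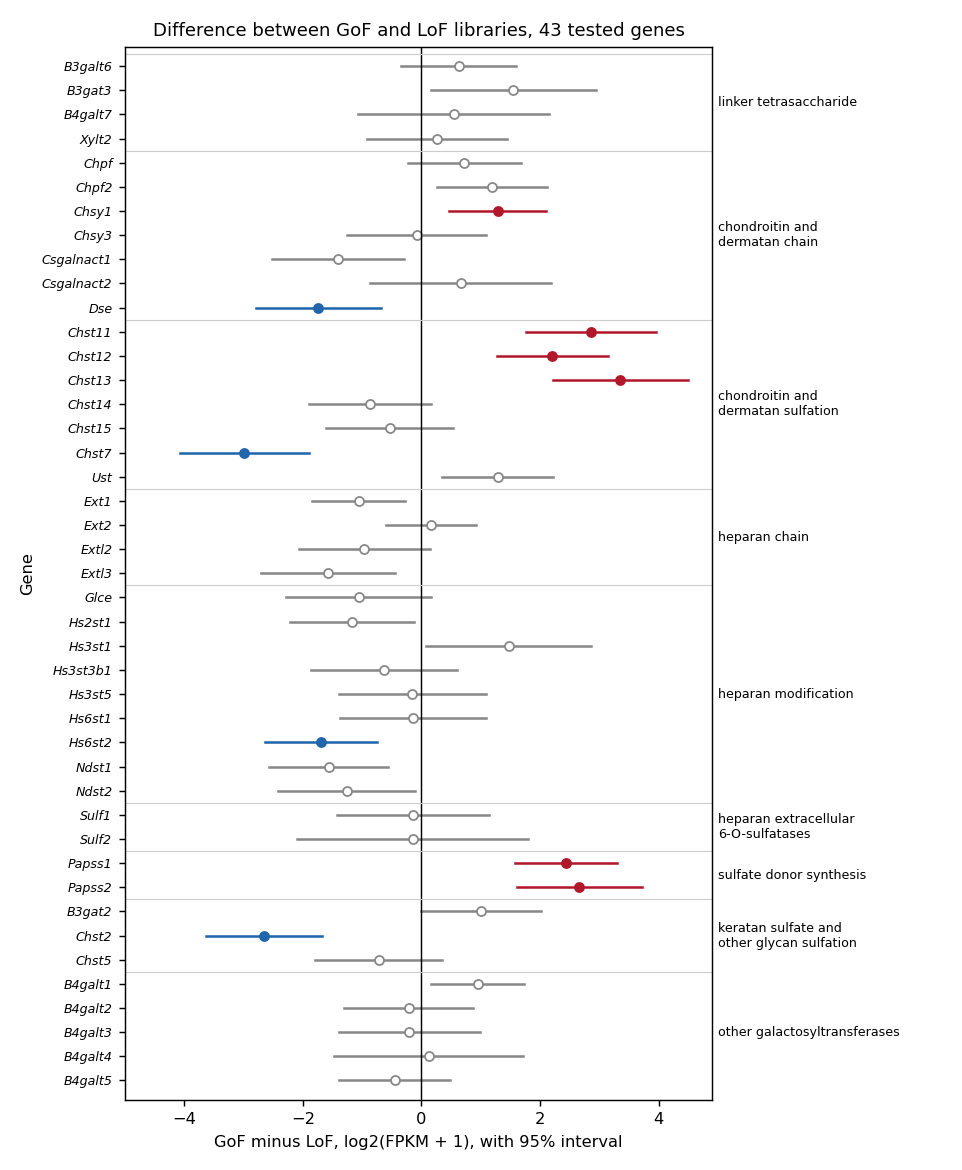
Difference between GoF and LoF in mean log2(FPKM + 1) for the 43 tested enzyme genes, with 95% intervals (lines), grouped by role. Filled points passed the adjusted p threshold of 0.05, 6 higher in GoF (red) and 4 lower (blue), and open points did not.

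Positions below are gene spans on mm10, counted from 1. Among the called genes, Papss1, Chst11 and Chsy1 are crossed by other genes on the other strand, and Hs6st2 by a gene on the same strand. Reads of such genes cannot be told apart from theirs here. Both enzymes that make PAPS, the sulfate donor of every sulfotransferase, were higher in GoF than in LoF. Papss1 (ENSMUSG00000028032.13, chromosome 3, 131564768 to 131643671) had 45.9 and 50.8 FPKM in GoF, against 4.86, 9.14, 7.11 and 13.001 in LoF and 30.6 and 25.1 in WT. The GoF libraries were the highest of the 8 and the LoF libraries the lowest, with no overlap between any of the groups. GoF averaged 48.4 ± 3.44 FPKM (SD, n = 2) and LoF 8.53 ± 3.46 FPKM (SD, n = 4), a 5.67-fold difference (log2 fold change 2.44, SE 0.39, limma adjusted p = 0.0033). This call held in all 16 alternative settings. Papss2 (ENSMUSG00000024899.6, chromosome 19, 32620005 to 32667187), the synthase most known from skeletal growth, had 26.8 and 31.7 FPKM in GoF, against 5.12, 5.58, 1.59 and 3.93 in LoF and 9.23 and 5.30 in WT. Its GoF libraries lay above the other 6, while LoF and WT overlapped. GoF averaged 29.2 ± 3.5 FPKM (SD, n = 2) and LoF 4.06 ± 1.79 FPKM (SD, n = 4), a 7.21-fold difference (log2 fold change 2.66, SE 0.47, limma adjusted p = 0.0059). The adjusted p was 0.0550 without GoF library 1 and 0.0664 without GoF library 2. Summed over both genes, the level was 72.7 and 82.5 FPKM in GoF, 8.70 to 16.9 in LoF and 39.9 and 30.3 in WT.

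Among the 8 chondroitin and dermatan sulfotransferases, 7 were tested, of which 3 were higher and 1 lower in GoF than in LoF. The 3 higher ones add sulfate to carbon 4 of the galactosamine. Chst11 (ENSMUSG00000034612.7, chromosome 10, 82985498 to 83195900), the form needed for the mouse growth plate, had 10.3 and 10.2 FPKM in GoF, against 0.922, 0.282, 0.454 and 0.629 in LoF and 1.75 and 5.47 in WT. Every LoF library was below 1 FPKM, and the 2 WT libraries lay between the other groups. The fold of means was 17.9 (log2 fold change 2.85, SE 0.49, limma adjusted p = 0.0051), and the adjusted p was 0.0600 without GoF library 1 and 0.0530 without GoF library 2. Chst12 (ENSMUSG00000036599.10, chromosome 5, 140505550 to 140525724) had 16.3 and 24.9 FPKM in GoF, against 3.92, 5.16, 2.33 and 3.34 in LoF and 4.89 and 4.87 in WT. Only the GoF libraries stood apart, and the WT values fell inside the LoF range. Its fold of means was 5.59 (log2 fold change 2.21, SE 0.42, limma adjusted p = 0.0079), with adjusted p = 0.0543 without GoF library 1 and 0.119 without GoF library 2. Chst13 (ENSMUSG00000056643.5, chromosome 6, 90308349 to 90325185) had 16.04 and 35.7 FPKM in GoF, against 1.95, 2.88, 0.423 and 1.19 in LoF and 15.9 and 15.3 in WT. The LoF libraries were the ones set apart, since GoF library 1 was close to both WT libraries. Its fold of means was 16.1 (log2 fold change 3.36, SE 0.51, limma adjusted p = 0.0029), and the call held in all 16 settings.

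Chst7 (ENSMUSG00000037347.7, chromosome X, 20059560 to 20097521), which sulfates carbon 6 of the galactosamine, went the other way. It was listed at 0 in both GoF libraries, against 6.40, 6.66, 11.6 and 4.53 FPKM in LoF and 2.39 and 4.74 in WT (limma adjusted p = 0.0040 for GoF against LoF, kept in all 16 settings). Chst7 is X-linked. LoF libraries 2 and 3, with Y-linked transcripts as in GoF, had 6.66 and 11.6 FPKM, and LoF libraries 1 and 4, with Xist, had 6.40 and 4.53. Why Chst7 was at 0 in GoF was not tested. Ust, which sulfates the uronic acid, had 5.55 and 5.16 FPKM in GoF, against 1.21, 1.35, 1.78 and 2.20 in LoF and 7.203 and 6.73 in WT. Its libraries did not overlap, yet the log2 fold change of 1.29 (SE 0.42) missed the threshold (limma adjusted p = 0.082) and passed it under median ratio scaling, quantile normalization and without the mean-variance trend (adjusted p = 0.0438, 0.0380 and 0.0434). Chst15, which adds a second sulfate to an already sulfated galactosamine, had 1.82 and 1.99 FPKM in GoF, against 1.54, 4.46, 3.02 and 4.62 in LoF and 2.91 and 2.66 in WT. GoF and LoF overlapped, and the gene's span overlaps that of Fgfr2 on the same strand. Chst14, the dermatan 4-sulfotransferase, is given because its share moved and was chosen after its values were seen. It had 3.55 and 9.74 FPKM in GoF, 8.77, 9.002, 17.5 and 13.6 in LoF and 12.7 and 9.46 in WT (limma adjusted p = 0.284 for GoF against LoF).

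The make-up of the summed sulfotransferase level differed as well. All 8 genes summed to 53.5 and 88.1 FPKM in GoF, 24.7 to 37.1 in LoF and 47.8 and 49.3 in WT. Chst11, Chst12 and Chst13 together gave 79.6% and 80.4% of that sum in GoF, 8.65% to 27.5% in LoF and 47.2% and 52.1% in WT. The 6-sulfotransferases Chst7 and Chst3 gave 0% and 0.399% in GoF, 15.1% to 31.2% in LoF and 4.995% and 9.63% in WT. Chst14 gave 6.64% and 11.1% in GoF, 29.5% to 47.2% in LoF and 26.6% and 19.2% in WT. These shares are of transcript levels and were not tested, since they combine genes already tested.

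**Figure D3:**
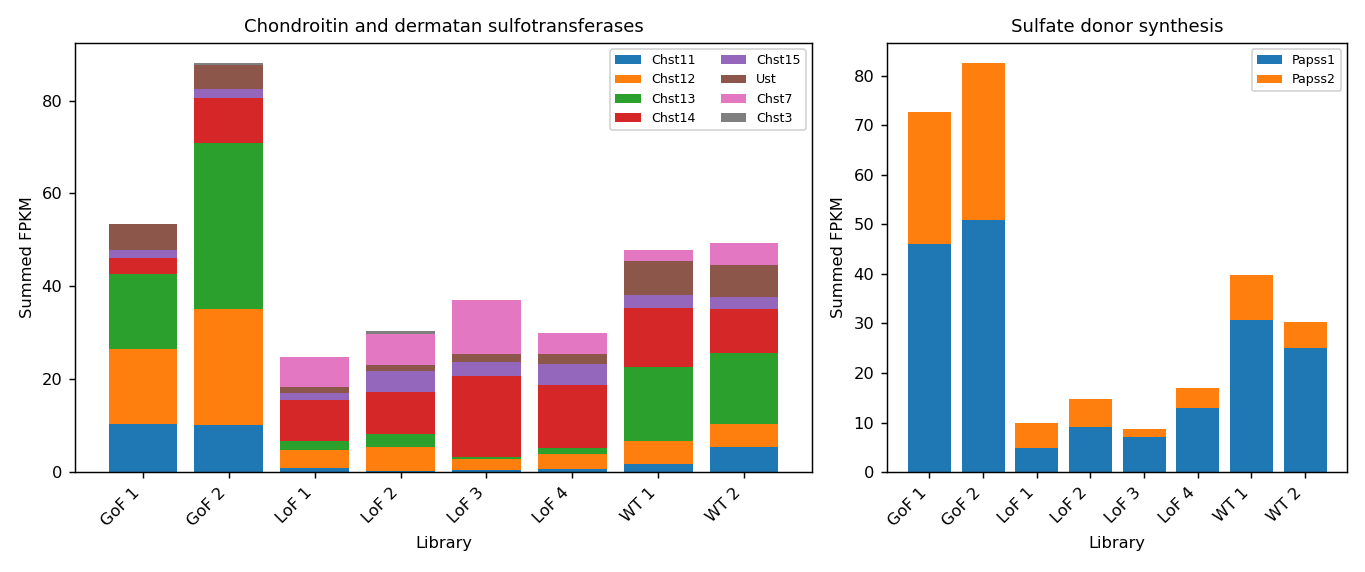
Summed FPKM per library, stacked by gene, of the 8 chondroitin and dermatan sulfotransferases (left) and of the 2 PAPS synthases (right). The GoF bars consist largely of Chst11, Chst12 and Chst13 and hold no Chst7, and the LoF bars are the lowest in both panels.

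Of the 7 tested enzymes that extend or epimerise chondroitin and dermatan chains, 1 was higher and 1 lower in GoF than in LoF. Chsy1 (ENSMUSG00000032640.10, chromosome 7, 66109515 to 66173798), a chondroitin synthase, had 23.0 and 13.8 FPKM in GoF, against 5.24, 7.46, 6.56 and 7.90 in LoF and 15.6 and 14.0 in WT. GoF and WT overlapped, and all LoF libraries lay below them. The log2 fold change was 1.29 (SE 0.37, limma adjusted p = 0.0479), and this call was the least secure of the 10, since leaving out any 1 of the 8 libraries ended it (adjusted p = 0.0584 without LoF library 4 to 0.474 without GoF library 1). It also ended with sex as a covariate, with no trend and with only the groups compared (adjusted p = 0.129, 0.0567 and 0.0768 in that order). Dse (ENSMUSG00000039497.7, chromosome 10, 34151394 to 34207551), the epimerase that turns chondroitin into dermatan, had 1.13 and 3.18 FPKM in GoF, against 6.81, 9.50, 6.93 and 14.1 in LoF and 7.85 and 5.24 in WT. Both GoF libraries lay below all others (log2 fold change against LoF −1.74, SE 0.47, limma adjusted p = 0.0409). Its call ended without GoF library 1 or 2, LoF library 2 or 4, or WT library 1 or 2 (adjusted p = 0.391, 0.0751, 0.0794, 0.0800, 0.0605 and 0.0592 in that order). It also ended with sex as a covariate, with no filter, under quantile normalization and with only the groups compared (adjusted p = 0.125, 0.0620, 0.0534 and 0.0594 in that order). Csgalnact1, which adds the first galactosamine of a chondroitin chain, had 0.521 and 2.33 FPKM in GoF, against 4.84, 3.63, 7.38 and 4.497 in LoF and 1.68 and 1.09 in WT. Its LoF libraries were the highest, but the difference did not pass the test (log2 fold change −1.40, SE 0.50, limma adjusted p = 0.109).

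Of the linker enzymes, 4 of 5 were tested and 0 were called in GoF against LoF by limma, with 1 at an unadjusted p under 0.05. That gene was B3gat3, which adds the glucuronic acid that completes the linker. It had 15.2 and 14.2 FPKM in GoF, against 1.21, 4.49, 12.3 and 4.11 in LoF and 8.28 and 5.16 in WT. GoF did not overlap the other groups, but LoF library 3 came close to it (log2 fold change 1.55, SE 0.62, limma adjusted p = 0.153, and 0.0371 without LoF library 3). Xylt2, the more abundant xylosyltransferase here, had 4.76 and 3.17 FPKM in GoF, against 2.55, 2.03, 6.56 and 2.43 in LoF and 3.63 and 1.48 in WT, and the groups overlapped.

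Of the heparan chain enzymes, 4 of 5 were tested and 0 were called in GoF against LoF by limma, with 2 lower, Ext1 and Extl3, at an unadjusted p under 0.05. Ext1 and Ext2 form the polymerase of heparan sulfate. Ext1 had 8.70 and 8.79 FPKM in GoF, against 20.2, 29.2, 15.3 and 15.3 in LoF and 26.1 and 25.1 in WT. Both GoF libraries lay below the other 6 (log2 fold change −1.06 against LoF, SE 0.35, limma adjusted p = 0.0850, and −1.45 against WT, SE 0.41, limma adjusted p = 0.108). Ext2 had 23.2 and 41.3 FPKM in GoF, against 22.1, 22.3, 32.5 and 36.0 in LoF and 49.8 and 53.7 in WT. GoF and LoF overlapped, and WT was the highest. Its span is crossed by Alx4 on the other strand, whose reads cannot be told apart from it here. Ext1 gave 27.3% and 17.5% of the summed FPKM of both genes in GoF, 29.8% to 56.7% in LoF and 34.4% and 31.9% in WT.

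Of 16 heparan modifying enzymes, 9 were tested and 1 was called in GoF against LoF. That was Hs6st2 (ENSMUSG00000062184.11, chromosome X, 51387212 to 51681856), a 6-O-sulfotransferase on the X chromosome. It was listed at 0 in both GoF libraries, against 2.13, 2.58, 2.06 and 2.18 FPKM in LoF and 0 and 0.852 in WT. The LoF values were close to each other, and Hs6st2 passed the filter only through them, so a difference was built into its selection and its call is no support. The limma adjusted p was 0.0291 and became 0.255 without GoF library 1, 0.209 without GoF library 2, 0.0561 without LoF library 2 and 0.0687 with sex as a covariate. Ndst1, which replaces acetyl by sulfate and so opens the chain to the later enzymes, had 0.875 and 1.21 FPKM in GoF, against 3.06, 5.45, 6.70 and 5.51 in LoF and 3.81 and 3.27 in WT. Both GoF libraries were the lowest, and the log2 fold change of −1.56 (SE 0.45) had a limma adjusted p of 0.0504. It was 0.0399 without LoF library 1. Rps14 crosses this gene on the other strand. Hs2st1, which sulfates the uronic acid of heparan, had 0.430 and 1.69 FPKM in GoF, against 3.00, 4.48, 2.53 and 3.83 in LoF and 1.26 and 1.63 in WT (limma adjusted p = 0.154 for GoF against LoF). Hs6st1 had 1.11 and 0.875 FPKM in GoF, against 0.625, 2.15, 0.172 and 2.87 in LoF and 0.833 and 0.167 in WT, and overlapped between GoF and LoF. Over all 16 genes the sum was 13.5 and 14.1 FPKM in GoF, 17.0 to 29.6 in LoF and 16.3 and 14.6 in WT.

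The sulfatases Sulf1 and Sulf2 remove 6-O-sulfate from heparan outside the cell. Sulf1 had 18.4 and 24.4 FPKM in GoF, against 14.9, 56.6, 12.7 and 28.0 in LoF and 9.25 and 3.94 in WT. Both mutants lay above WT in every library and overlapped each other, and neither difference from WT passed the test (log2 fold change 1.64, SE 0.66, limma adjusted p = 0.282 for GoF, and 1.79, SE 0.57, limma adjusted p = 0.197 for LoF). Sulf2 had 1.57 and 1.24 FPKM in GoF, 0.352, 2.598, 9.21 and 0 in LoF and 4.93 and 1.14 in WT. Its LoF libraries spread over the whole range, and Ncoa3 crosses it on the other strand.

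Of the 9 genes for keratan sulfate and other sulfated glycans, 3 were tested. Chst2 (ENSMUSG00000033350.7, chromosome 9, 95399292 to 95406722), which sulfates N-acetylglucosamine, was listed at 0 in both GoF libraries, against 4.04, 5.03, 6.27 and 6.17 FPKM in LoF and 5.93 and 3.59 in WT. LoF and WT overlapped and GoF lay below both (limma adjusted p = 0.0043 for GoF against LoF, and 0.0516 without GoF library 1). Among the other galactosyltransferases B4galt1, which also extends many other glycans, had 31.6 and 32.6 FPKM in GoF, against 11.02, 14.5, 24.7 and 17.2 in LoF and 22.4 and 21.4 in WT. GoF was the highest group without overlap, but the log2 fold change of 0.95 (SE 0.35) did not pass the test (limma adjusted p = 0.124, and 0.0361 under median ratio scaling).

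**Figure D4:**
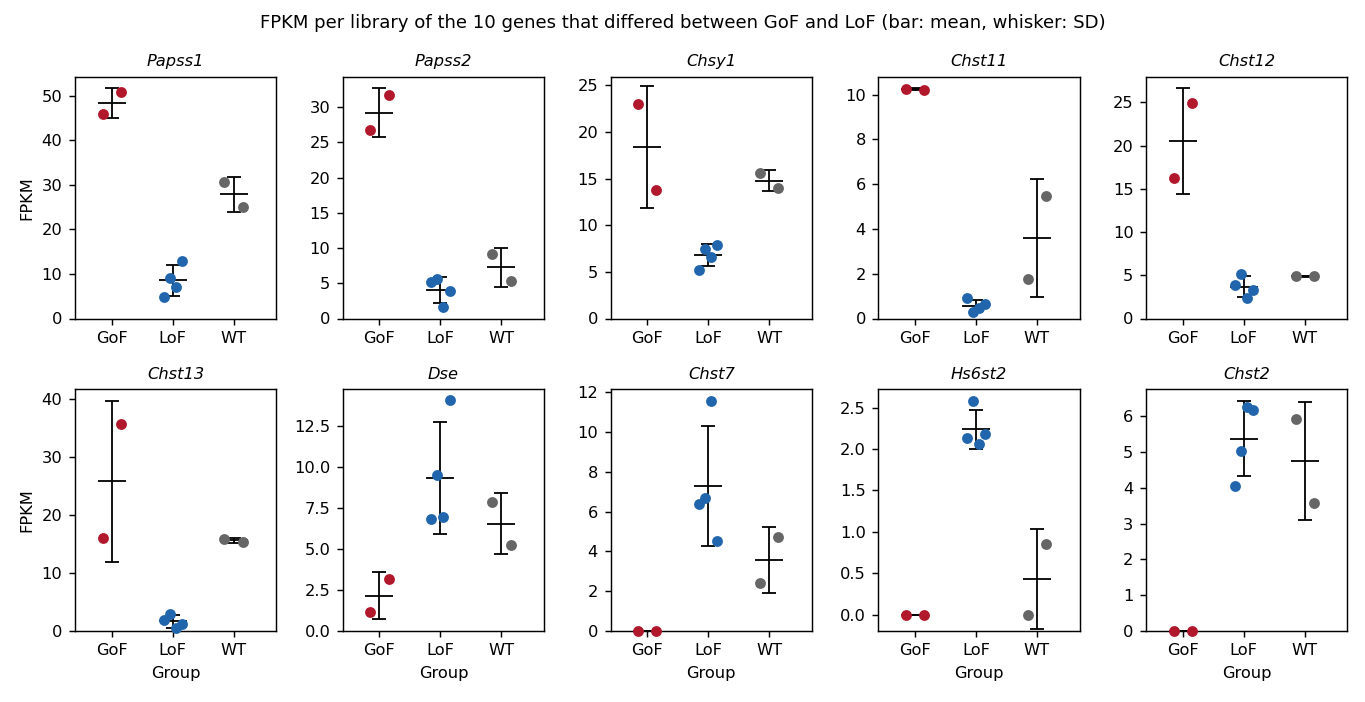
FPKM of the 10 genes that differed between GoF and LoF, with 1 point per library, a bar at the group mean and whiskers of 1 SD (2 GoF, 4 LoF and 2 WT libraries). Chst7, Hs6st2 and Chst2 are listed at 0 in both GoF libraries, and the WT points of Papss1 lie between those of GoF and LoF.

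GoF against WT asks what stabilised β-catenin changed. Of the 43 enzymes, 0 were higher and 1, Chst2, was lower. This is 2.33%, while 2.31% of all tested genes were called (1.41% higher and 0.9% lower), so the enzymes were called at about the rate of other genes. In 13 enzymes both GoF libraries lay above both WT libraries and in 13 both lay below, against 21.8% and 26.2% of all tested genes (48% in all). At an unadjusted p under 0.05, limma had 5 higher (Chst11, Chst12, Hs3st1, Sulf1 and Papss2) and 4 lower (Dse, Chst7, Ext1 and Chst2), against 7.27% and 7.08% of all tested genes. Chst2 had a limma adjusted p of 0.0344, which became 0.230 without GoF library 1, 0.181 without GoF library 2, 0.0548 without LoF library 2, 0.0532 without LoF library 4, 0.237 without WT library 1 and 0.114 without WT library 2. With sex as a covariate it was 0.242, and with only the groups compared 0.0507. The nearest others among the 10 genes were Chst12 (log2 fold change 1.85, SE 0.48, limma adjusted p = 0.0870) and Chst7, which was listed at 0 in GoF (limma adjusted p = 0.0907). Papss2 had a log2 fold change of 1.91 (SE 0.55, limma adjusted p = 0.117) and Chst11 one of 1.41 (SE 0.57, limma adjusted p = 0.280).

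LoF against WT asks what the loss of β-catenin changed. Of the 43 enzymes, 0 were higher and 1, Chst13, was lower, at 1.61 ± 1.051 FPKM (SD, n = 4) in LoF and 15.6 ± 0.422 FPKM (SD, n = 2) in WT. This is 2.33%, while 1.23% of all tested genes were called (0.566% higher and 0.667% lower). In 5 enzymes all LoF libraries lay above both WT libraries and in 8 all lay below, against 11.5% and 9.88% of all tested genes (21.4% in all). At an unadjusted p under 0.05, limma had 3 higher (Csgalnact1, Hs6st2 and Sulf1) and 6 lower, against 7.67% and 5.72% of all tested genes. Of these, Hs6st2 entered the test only through the LoF libraries, so its place among the higher ones is no support. The log2 fold change of Chst13 was −2.77 (SE 0.51, limma adjusted p = 0.0366). The adjusted p became 0.0513, 0.0556 and 0.0616 without LoF library 1, 2 or 4 and 0.241 and 0.300 without WT library 1 or 2. It was 0.186 with sex as a covariate, 0.0730 at a pseudocount of 0.1, 0.0885 with no filter and 0.0556 with no trend. Papss1 followed, with a log2 fold change of −1.66 (SE 0.39, limma adjusted p = 0.0792), and it passed under median ratio scaling and quantile normalization (adjusted p = 0.0369 and 0.0326). Ust had a log2 fold change of −1.61 (SE 0.42, limma adjusted p = 0.113). Over all tested genes, 73 were higher and 86 lower, against 80 higher and 147 lower after quantile normalization.

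The 2 comparisons with WT share the 2 WT libraries, so their values stand side by side only. Chst13 differed from WT by 0.59 in GoF and −2.77 in LoF, and Papss1 by 0.78 in GoF and −1.66 in LoF, both in log2 fold change. For these genes LoF lay farther from WT than GoF did. Chst12 differed by 1.85 in GoF and −0.36 in LoF, and Papss2 by 1.91 in GoF and −0.75 in LoF. Chst11 differed by 1.41 in GoF and −1.44 in LoF. Chsy1 differed by 0.26 in GoF and −1.03 in LoF, and Dse by −1.32 in GoF and 0.42 in LoF.

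**Figure D5:**
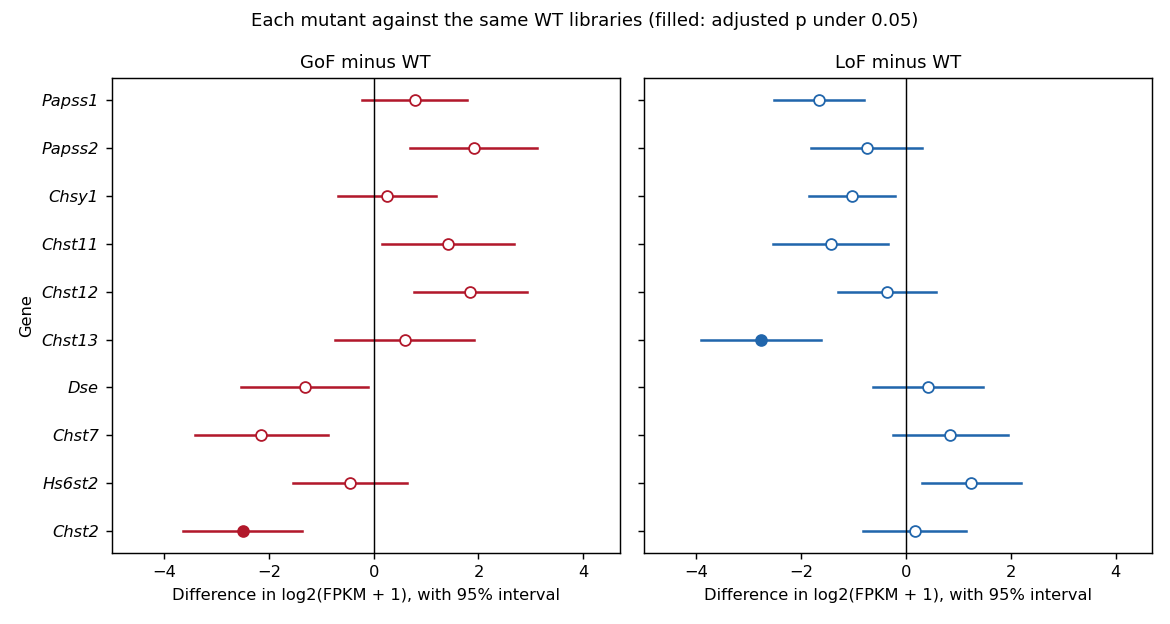
Differences from WT in mean log2(FPKM + 1) with 95% intervals for the 10 genes that differed between GoF and LoF, GoF minus WT (left) and LoF minus WT (right), both against the same 2 WT libraries. Filled points passed the adjusted p threshold of 0.05, Chst2 in GoF and Chst13 in LoF.

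Genes outside the rule that supply, carry or break down the same chains were read from 5 lists with 74 genes, of which 63 were tested. The lists were chosen with earlier results of these data known, so their share of called genes is no independent support. In GoF against LoF, 11 were higher and 6 lower, 27.0% of those tested beside 11.6% of all genes, and this count of 17 fell to 9 without GoF library 1, 11 without GoF library 2 and 12 with sex as a covariate. Of 17 tested genes for precursor supply and transport, 2 were higher and 0 lower, with 0 lower also at an unadjusted p under 0.05. Slc35a2, the X-linked carrier of UDP-galactose into the Golgi, had 33.5 and 35.8 FPKM in GoF, against 1.81, 8.12, 3.71 and 4.15 in LoF and 17.6 and 28.5 in WT (limma adjusted p = 0.0044 for GoF against LoF). Pxylp1, the phosphatase that removes phosphate from the linker xylose, had 92.4 and 137 FPKM in GoF, against 6.13, 11.4, 7.64 and 10.4 in LoF and 23.0 and 14.6 in WT. It was higher in GoF than in LoF (log2 fold change 3.56, limma adjusted p = 3.1e-04) and than in WT (log2 fold change 2.55, limma adjusted p = 0.0139). The call against WT ended without GoF library 1 or 2 or WT library 1 or 2 (adjusted p = 0.0771, 0.138, 0.0675 and 0.117 in that order), and was 0.228 with sex as a covariate.

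Core proteins divided by gene. Of 16 tested core proteins of chondroitin, dermatan and keratan sulfate, 6 were higher and 2 lower in GoF than in LoF. Dcn, decorin, had 886 and 796 FPKM in GoF, against 57.0, 36.3, 23.3 and 43.7 in LoF and 152 and 422 in WT. Lum, lumican, had 519 and 718 FPKM in GoF, against 46.0, 38.0, 17.9 and 40.4 in LoF and 131 and 256 in WT. In both genes the groups did not overlap and WT lay between the mutants (limma adjusted p = 2.5e-04 for GoF against LoF in each, and 0.0227 and 0.0259 for LoF against WT). Their LoF against WT calls ended without LoF library 2 (adjusted p = 0.0565 for Dcn and 0.0589 for Lum) and without WT library 2 (0.255 and 0.313), and that of Lum without WT library 1 (0.0760). They also ended with sex as a covariate (0.134 for Dcn and 0.167 for Lum), with no filter (0.0833 and 0.0879) and with no trend (0.0627 and 0.0762). Bcan, Bgn, Omd and Ptprz1 were the other higher ones, with limma adjusted p from 7.3e-04 (Bcan) to 0.0362 (Bgn). Without GoF library 1 the adjusted p was 0.357 for Bgn, 0.0616 for Omd and 0.0577 for Ptprz1, and without GoF library 2 it was 0.0721 for Bgn and 0.151 for Omd. The call of Bgn also ended without LoF library 1, 2 or 3 or either WT library (adjusted p = 0.0576, 0.0601, 0.0619, 0.0579 and 0.0575 in that order), with sex as a covariate (0.0920), with no filter (0.0766), with no trend (0.129) and with only the groups compared (0.0556). That of Omd ended at a pseudocount of 0.1 (0.0856) and with no filter (0.0729). Ogn, osteoglycin, had 7.37 and 0.667 FPKM in GoF, against 65.3, 110.5, 58.6 and 88.8 in LoF and 12.95 and 8.09 in WT. It was lower in GoF than in LoF (log2 fold change −4.41, limma adjusted p = 0.0011) and higher in LoF than in WT (log2 fold change 2.82, limma adjusted p = 0.0493), and the second call ended when any of the LoF or WT libraries was left out (adjusted p up to 0.362, without WT library 2), with sex as a covariate (0.241), at a pseudocount of 0.1 (0.133), with no filter (0.142), under median ratio scaling (0.0548) and with no trend (0.102). Vcan, versican, was the other lower one (limma adjusted p = 0.0399), a call that ended without GoF library 1 or 2 or LoF library 1 or 2 (adjusted p = 0.356, 0.0980, 0.0722 and 0.0861 in that order), with sex as a covariate (0.0939), with no filter (0.0587), under median ratio scaling (0.0628) and under quantile normalization (0.0757).

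Of 12 tested heparan sulfate core proteins, 1 was higher and 3 lower in GoF than in LoF. Sdc1, a syndecan of the cell surface, had 2.00 and 5.65 FPKM in GoF, against 50.003, 46.3, 65.0 and 80.4 in LoF and 50.6 and 42.3 in WT. The GoF libraries stood far below both other groups (log2 fold change −3.75 and limma adjusted p = 3.0e-04 against LoF, and −3.41 and 0.0044 against WT, which was 0.0611 without WT library 1 and 0.117 with sex as a covariate). Sdc2 had 30.9 and 40.9 FPKM in GoF, against 138, 200, 225 and 218 in LoF and 132 and 83.4 in WT (limma adjusted p = 8.9e-04 for GoF against LoF). Sdc3 went the other way, with 33.5 and 22.7 FPKM in GoF, against 4.47, 9.98, 5.202 and 8.79 in LoF and 10.7 and 9.91 in WT (limma adjusted p = 0.0158 for GoF against LoF, and 0.210 and 0.0673 without GoF library 1 or 2 and 0.0638 with sex as a covariate). Tgfbr3, betaglycan, was listed at 0 in both GoF libraries, against 4.63, 10.99, 8.42 and 8.82 FPKM in LoF and 4.24 and 2.08 in WT (limma adjusted p = 0.0029 for GoF against LoF). In the breakdown list, Glb1, a lysosomal galactosidase, was higher and Hyal2, a hyaluronidase, was lower in GoF than in LoF (limma adjusted p = 0.0278 and 0.0383), and each call ended without GoF library 1 (adjusted p = 0.238 and 0.403) or LoF library 2 (0.0571 and 0.0569), with sex as a covariate (0.0974 and 0.112) and with no filter (0.0598 and 0.0654). That of Glb1 also ended without GoF library 2 (0.104), and that of Hyal2 without LoF library 3 or 4 (0.0619 and 0.0783) or WT library 1 or 2 (0.0514 and 0.0533), under quantile normalization (0.050035) and with only the groups compared (0.0517). None of the 4 tested genes of hyaluronan synthesis and turnover was called by limma, with 1 lower, Cemip, at an unadjusted p under 0.05.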

How the data were processed

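Smart-seq2 libraries were made from 8 pools of hand-picked cells, per the labels' protocols, and the authors deposited 1 FPKM value per gene and library. The submitters' processing notes list HISAT2, Cufflinks, HTSeq, SAMtools 0.1.18 and mm10 without saying what each did. Which annotation release was used is not given in the sources used here. The table has 48555 lines, of which 65 repeat an ID with identical values, so 48490 genes remained. Without read totals no counting intervals were made. Relative depth, read from the steps between low values, spanned 1.29-fold.

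Tests used log2(FPKM + 1) as deposited, with no further scaling, in limma 3.58.1 (R 4.3.3) with a mean-variance trend. The labels gave the groups, and 1 fit over all 8 libraries lent GoF and WT a shared estimate of the spread. A gene was tested if 2 or more libraries reached an FPKM of 1 (12888 genes), and called at a Benjamini-Hochberg adjusted p under 0.05 over all of them. FPKM depends on the library total, so abundant genes lower the others. Starts in the table count from 0 and were raised by 1, which equalled the GENCODE M21 span for 42522 of 48131 matched IDs. Overlapping genes were read from GENCODE M21 spans and promoters from RefSeq. Genes named with values were every called enzyme, a set of 21 enzymes whether called or not, and the called genes of the 5 lists, of which 1 is counted but not reported here. These 21 enzymes and the 5 lists were chosen with earlier results of these data known, while the rule on gene symbols used no measured value. The 16 alternative settings were a pseudocount of 0.1, no filter, median ratio scaling, quantile normalization, no trend, the replicate number as a block, sex (Y-linked transcripts or Xist) as a covariate, only the groups compared, and each library left out. A count restricted to genes with libraries at 1 FPKM in 2 or more groups was added after seeing the data. The code was tested on simulated data.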

Additional observations from a re-analysis of the deposited data

Results flagged for a closer look

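The highest or lowest LoF library was compared with the other 3 in each of 43 tested enzymes by Dixon's test, and chance gives about 1 in 20. On log2(FPKM + 1), 1 enzyme stood apart, and on FPKM itself 3 did. Hs3st5, a heparan 3-O-sulfotransferase, passed on both scales, with 1.97 FPKM in LoF library 1 and 0 in LoF libraries 2, 3 and 4. With 3 libraries at 0 any value above 0 in the other one gives this outcome, so the test says nothing more than the values do. It had 0.395 and 0 FPKM in GoF and 1.25 and 0 in WT. On FPKM alone, Xylt2 stood apart with 6.56 in LoF library 3 and 2.03 to 2.55 in the other LoF libraries, and Csgalnact2, which like Csgalnact1 starts chondroitin chains, with 14.4 in LoF library 4 and 1.75 to 3.21 in the others. The cause was not tested.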

How the results depend on the processing

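The enzymes called in GoF against LoF numbered 10, with 3 when the replicate number was a block, 7 with sex as a covariate and 3 to 10 when 1 library was left out. The calls lost under the block were those of Chsy1, Dse, Chst11, Chst12, Hs6st2, Papss2 and Chst2 (adjusted p from 0.0505 to 0.138). The genes of the 5 lists numbered 17, with 10 under the replicate block, 12 with sex and 9 to 17 when 1 library was left out. In GoF against WT the enzymes numbered 1, with 2 at a pseudocount of 0.1, 0 under the replicate block, sex as a covariate or only the groups compared, and 0 to 1 when 1 library was left out. The list genes numbered 2, with 0 under the block or sex, 5 with only the groups compared and 0 to 3 when 1 library was left out. In LoF against WT the enzymes numbered 1, with 2 under median ratio scaling or quantile normalization, 0 at a pseudocount of 0.1, with no filter, no trend, the replicate block or sex, and 0 to 1 when 1 library was left out. The list genes numbered 3, with 0 under no filter, no trend, the block or sex and 0 to 3 when 1 library was left out. The counts over all tested genes moved too. In GoF against LoF they were 1501, with 727 under the block and 974 with sex. In GoF against WT they were 298, with 15 under the block, 11 with sex, 239 at a pseudocount of 0.1 and 326 with only the groups compared. In LoF against WT they were 159, with 1 under the block, 14 with sex, 83 at a pseudocount of 0.1, 53 with no filter and 54 with no trend. Replicate numbers showed no pairing of the libraries: over 6 pairs of the same number, deviations from the group means correlated at −0.0069 to 0.030. These pairs are not separate checks, since in GoF and WT, with 2 libraries each, the deviations mirror each other. Both pairs of GoF with WT therefore gave the same value, 0.0072. A fit with 1 library of a group assumes that it varies like the other groups.

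None of the called enzymes changed direction in its comparison. The uncalled log2 fold changes that did, among those named, were in GoF against LoF those of Hs6st1 (0.019 at a pseudocount of 0.1, 0.050 with sex), Sulf1 (0.025 under median ratio scaling) and Sulf2 (0.53 at a pseudocount of 0.1, 0.066 under quantile normalization, 0.12 under the block). In GoF against WT they were those of B3gat3 (−0.29 with sex) and Csgalnact1 (0.15 under quantile normalization). In LoF against WT they were those of Xylt2 (−0.047 under the block), Chst15 (−0.022 under the block, −0.00050 with sex) and Chst2 (−0.032 under the block). With 1 library left out, the range in GoF against LoF was −0.24 to 0.57 for Ext2, −0.44 to 0.13 for Hs6st1, −0.42 to 0.27 for Sulf1 and −0.62 to 0.50 for Sulf2. In GoF against WT it was −0.094 to 0.61 for Chsy1, −0.64 to 0.49 for Csgalnact1, −0.77 to 0.14 for Hs2st1 and −1.31 to 0.17 for Sulf2. In LoF against WT it was −0.18 to 0.72 for Xylt2, −1.16 to 0.31 for Sulf2 and −0.13 to 0.46 for Chst2. The cause was not tested, and with read totals unknown no limit set by depth can be given.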

Other observations

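Some enzymes below the filter were above 0 mainly in GoF. Chst8 was listed at 0 and 2.74 FPKM in GoF and Hs3st6 at 0 and 4.33 FPKM in GoF, both in library 2, and Chst8 was at 0 in every LoF and WT library, while Hs3st6 was at 0 in every LoF library and at 0.614 and 0 FPKM in WT. Chst10 was at 0.235 and 1.304 FPKM in GoF and at 0 in every LoF and WT library. Hs3st1, which makes the antithrombin-binding sites of heparan, had 8.76 and 2.21 FPKM in GoF, against 0.381, 1.06, 3.20 and 0.387 in LoF and 0.409 and 0 in WT. Neither of its differences passed the test (limma adjusted p = 0.172 for GoF against LoF and 0.169 for GoF against WT). These genes were chosen after their values were seen.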
